A study of Mus musculus with 12 samples.

Results

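The 8 genes followed here were the 3 transforming growth factor beta (TGF-beta) ligand genes Tgfb1, Tgfb2 and Tgfb3, their receptor genes Tgfbr1 and Tgfbr2, the latency protein gene Ltbp1, and, of the activin branch, Inhba and Acvr1b. They were taken by name, and all 8 were present among the 19369 genes measured in the Total libraries and the 18574 measured in the CD45 libraries. Their levels were read by cell class in 6 tumours grown in the mammary fat pad of female BALB/c mice aged 9 to 11 weeks, 1 tumour in each group. The groups were 5 clones of the mouse triple-negative mammary carcinoma line 4T1, named Clone E, Clone EM1, Clone EM2, Clone EM3 and Clone M, each grown out from a single cell, and the parental 4T1 line. The series presents the clones as epithelial, intermediate or mesenchymal states without assigning a state to each name. The labels name no treatment, and each clone is 1 isolate of the line. Each tumour gave a Total library of dissociated cells and a CD45 library enriched on magnetic beads for leukocytes, so that 12 libraries were used. The question that the sampling allows for these genes is which cells of a tumour carry the ligand transcripts, which carry the receptor transcripts, and whether that differs between tumours.

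TGF-beta ligands are made as latent dimers in which the mature cytokine stays held by its own propeptide. Latent TGF-beta binding proteins such as the product of Ltbp1 tether that complex to the extracellular matrix, and integrins, proteases or thrombospondin release it. The free ligand binds the type II receptor encoded by Tgfbr2, which recruits and phosphorylates the type I receptor encoded by Tgfbr1, and SMAD2 and SMAD3 carry the signal to the nucleus. Inhba encodes the subunit of activin A, a dimer that uses the type I receptor encoded by Acvr1b, with a type II activin receptor, to reach the same SMADs. In tumours TGF-beta is known for promoting epithelial-mesenchymal transition and for restraining T and NK cells.

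Libraries held between 28083101 and 122055131 unique molecular identifiers (UMIs, which tell captured RNA molecules apart from their PCR copies) in 6709 to 13467 cells, and 2135 of 115612 cells (1.85%) were called doublets and left out. Cell classes were those of the authors' annotation. A level is given in CPM, the UMIs of a gene per 1000000 UMIs of all cells of a class within 1 library, and where 6 values stand in a row they are in the order E, EM1, EM2, EM3, M and parental. Each list of class markers was highest in its own class in 6 of 6 tumours, except that the macrophage markers of the CD45 libraries were highest in macrophages in 3 of 6 and in the class named Other Myeloid in E, EM3 and M. The class that the authors labelled B in the Total libraries also held plasmacytoid dendritic markers, at 1862 to 7275 CPM in sum beside 1764 to 4613 CPM of B cell markers, against 271 to 558 CPM in the CD45 B class. It is called the Total B class below, and the part of plasmacytoid cells in its levels was not tested. Plasma-cell markers summed to 2021 to 17818 CPM in the Total and 767 to 18097 CPM in the CD45 B class, highest in EM1 in both, and their part was not tested either: Tgfb1 in EM1 was 460.0 CPM pooled and 702 CPM as a mean per cell in the Total B class, and 397 and 654 CPM in the CD45 B class. Some libraries held the same 16-base cell barcodes: the 14 pairs of libraries within E and EM3, within EM1 and EM2, within M and within the parental tumour shared 12.2% to 19.1% of barcodes, against 0.686% to 1.91% in the 52 other pairs. Clone M and Clone E therefore differ in clone and in barcode set, which cannot be told apart, whereas E and EM3 lie in the same set. With 1 tumour per clone no test between clones was possible, and intervals, all at 95%, cover counting error only. Log2 differences between classes are on edgeR's scale after TMM factors, which centre most genes near 0 and can move a difference away from the ratio of the CPM values. A class difference is called here at a Benjamini-Hochberg adjusted p under 0.05 and a change of 2-fold or more.

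The genes lie on 8 chromosomes of mouse genome build GRCm38, the build that the notes of the submitters call mm10. Tgfb1 occupies chr7:25687002-25705077 on the plus strand, Tgfb2 chr1:186622792-186705989 on the minus strand and Tgfb3 chr12:86056745-86079041 on the minus strand. Inhba occupies chr13:16011851-16031621 and Ltbp1 chr17:75005568-75392512, both on the plus strand. Among the receptors, Tgfbr1 occupies chr4:47353222-47414931 (plus), Tgfbr2 chr9:116084293-116175360 (minus) and Acvr1b chr15:101174067-101213684 (plus). The 250 bases before the start of 3 ligand genes are shown because the results below turn on these ligands and a window was matched for each: Inhba, high in fibroblasts and, in 1 tumour, in macrophages; Tgfb2, high in fibroblasts; and Tgfb1, present in every class. The sequences are from RefSeq on GRCm38.p6, run 5′ to 3′ on the strand of the gene, and end at the base before the start. Capitals mark a TATA box (TATAAA) in the Inhba and Tgfb2 windows, and a GC box (GGGCGG, or CCGCCC where it lies on the other strand) in the Tgfb1 window.
Inhba, chr13:16011601-16011850, plus strand: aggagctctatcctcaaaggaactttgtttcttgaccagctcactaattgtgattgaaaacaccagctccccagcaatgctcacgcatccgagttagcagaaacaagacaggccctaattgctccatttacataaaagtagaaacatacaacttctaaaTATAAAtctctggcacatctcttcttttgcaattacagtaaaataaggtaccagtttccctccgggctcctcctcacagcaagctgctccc
Tgfb2, chr1:186705990-186706239, minus strand: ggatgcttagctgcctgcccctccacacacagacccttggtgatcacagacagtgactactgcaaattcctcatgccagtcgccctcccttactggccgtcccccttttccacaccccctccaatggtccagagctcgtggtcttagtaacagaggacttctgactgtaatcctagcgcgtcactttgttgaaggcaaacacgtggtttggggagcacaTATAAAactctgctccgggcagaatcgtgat
Tgfb1, chr7:25686752-25687001, plus strand: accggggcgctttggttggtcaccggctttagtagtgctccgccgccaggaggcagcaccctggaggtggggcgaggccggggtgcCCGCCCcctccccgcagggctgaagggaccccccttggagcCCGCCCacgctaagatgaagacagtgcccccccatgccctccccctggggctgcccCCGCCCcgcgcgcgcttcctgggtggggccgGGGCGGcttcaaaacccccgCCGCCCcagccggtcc
The TATA box began 91 bases before the start of Inhba and 31 bases before that of Tgfb2. The Tgfb1 window held 5 GC boxes, at 164, 123, 67, 36 and 16 bases before the start, and no TATA box. Searched on both strands, TATAAA was present in 12.4% and GGGCGG in 32.7% of 32851 mouse promoter windows of this length. A window was matched for 7 of the 8 genes, all but Tgfb3: GGGCGG also occurred in those of Tgfbr1 and Acvr1b, and TATAAA in none but those of Inhba and Tgfb2. These matches describe letters and not binding.

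**Figure D1:**
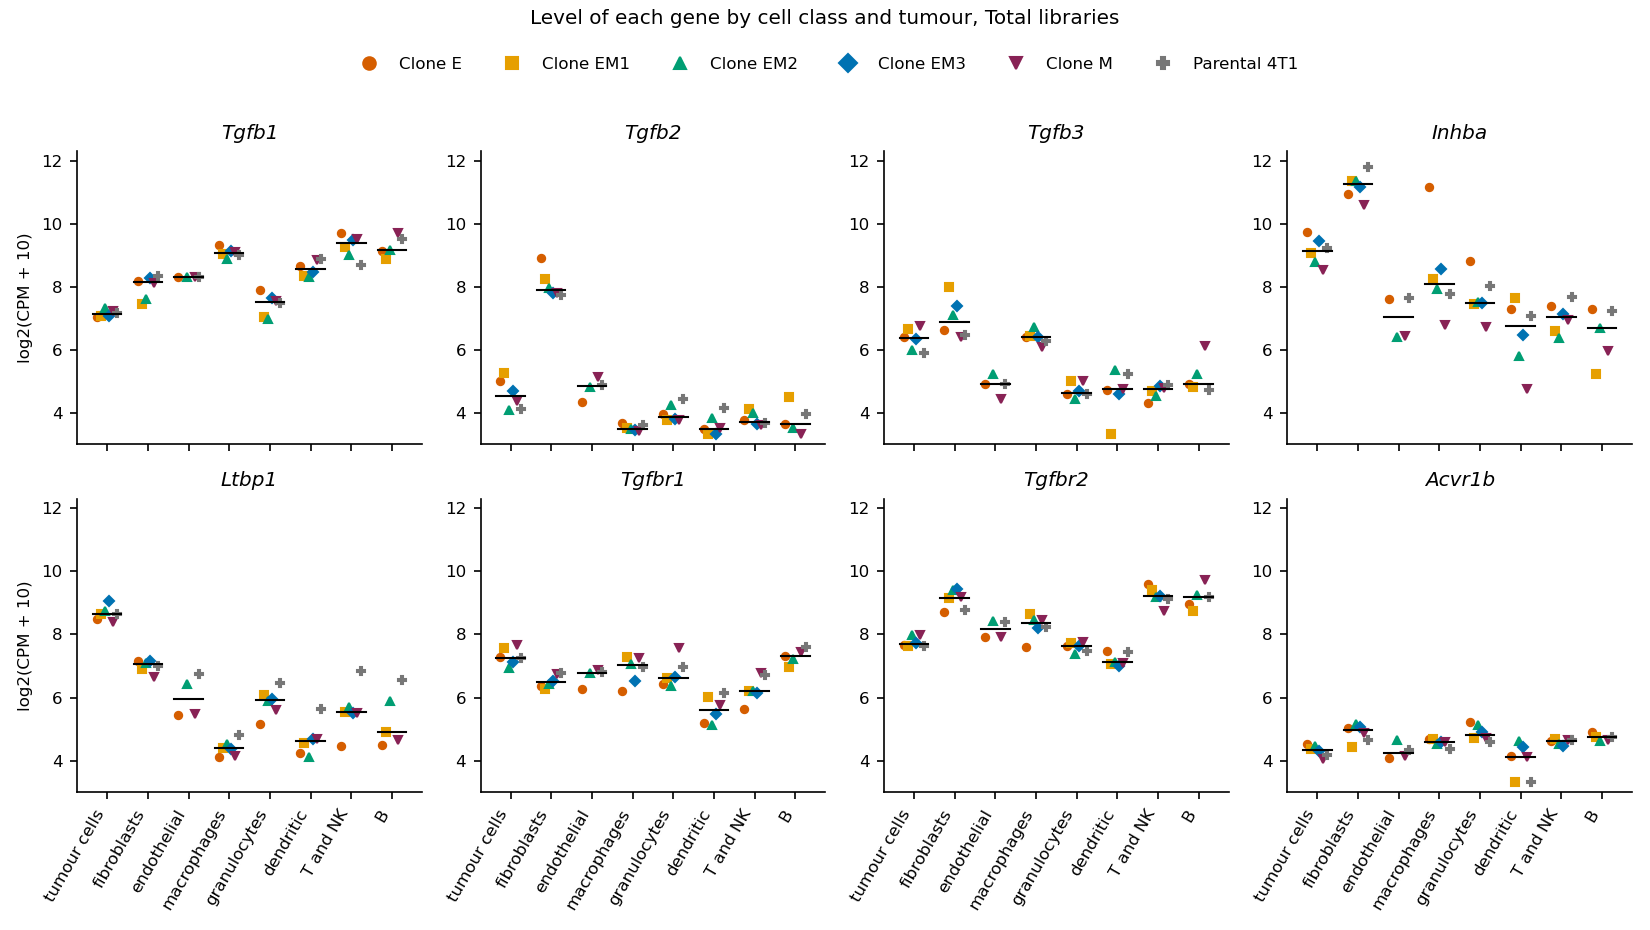
Level of each of the 8 genes (y axis, log2 of CPM plus 10) in the cell classes of the Total libraries (x axis); each symbol is 1 tumour with at least 50 cells of the class and the bar is the median over tumours. Tgfb2 stands out in fibroblasts, Ltbp1 in tumour cells, Tgfbr2 in the T/NK and B classes and fibroblasts, and Inhba in fibroblasts, with the macrophages of Clone E at 2288 CPM far above those of the other 5 tumours.

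Tgfb1, the ligand that leukocytes are best known for, was detected in every class, and its median over tumours was lowest in tumour cells. In tumour cells its level was 122, 126, 152, 125, 139 and 134 CPM, a narrow band over the 6 tumours. Macrophages of the same Total libraries held 628, 515, 458, 547, 540 and 499 CPM. Lymphocytes of the T/NK class held 815, 608, 502, 710, 717 and 404 CPM. The ranges of macrophages and of T and NK cells overlapped each other, and neither overlapped that of tumour cells in any tumour. In edgeR's quasi-likelihood test over the 6 tumours, Tgfb1 was higher than in tumour cells by a log2 difference of 2.44 ± 0.143 (SE) in macrophages (Benjamini-Hochberg adjusted p = 3.59e-18) and of 2.15 ± 0.142 in T and NK cells (adjusted p = 2.56e-16), in 6 of 6 tumours each. The Total B class held 460 to 825 CPM over the 5 tumours with at least 50 of its cells, dendritic cells 305 to 456 and granulocytes 117 to 226. Fibroblasts held 281, 167, 184, 300.0, 266 and 316 CPM, above tumour cells by 1.32 ± 0.142 (adjusted p = 1.22e-10). Granulocytes overlapped tumour cells in CPM, and their called log2 difference of 1.12 ± 0.141 (adjusted p = 6.71e-09) was higher in 4 of 6 tumours by CPM. That call was lost, at 0.31, without the scaling factors that centre most genes on 0, at 0.81 with no filter on low counts, at 0.99 without Clone E and at 0.95 without Clone EM3.

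Within the CD45 libraries the highest Tgfb1 medians were in NK cells and in Gzmb+ Cd8+ T cells. NK cells lack the T cell receptor and kill without prior priming, and Gzmb+ cells are named for the cytotoxic protease granzyme B. B cells held 397 to 1047 CPM in 5 tumours and reached the lower end of the Gzmb+ Cd8+ range. NK cells held 1299 to 1603 CPM in the 4 tumours with at least 50 of them, with no overlap with any other class or T cell subtype. The NK class held NK markers at 888 to 2175 CPM in sum. It also held mast cell markers at 360 to 723 CPM, against 41.1 to 184 CPM in T cells. Markers of the endothelial list summed to 412 to 609 CPM in it, against 112 to 147 CPM in T cells. The part of other cells in its Tgfb1 level was not tested. Gzmb+ Cd8+ T cells held 1045 to 1262 CPM in 5 tumours, a range that did not overlap the 611 to 892 CPM of Foxp3+ Cd4+ T cells, the regulatory subtype. Foxp3+ cells overlapped Cd44+ Cd4+ T cells, at 581 to 781 CPM in 6 tumours. Cd44- Cd4+ T cells, without the activation marker Cd44, were lowest among the T cell subtypes at 210 to 414 CPM in 5 tumours. CD45 macrophages held 771, 562, 500, 704, 659 and 546 CPM. Granulocytes of the CD45 libraries held 291, 134, 98.8, 249, 196 and 220 CPM, below the macrophages of the same tumour in 6 of 6 tumours. The log2 difference of -0.79 ± 0.134 (adjusted p = 1.8e-06) lay under the 2-fold limit and was past it, at -1.68, without scaling factors.

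**Figure D2:**
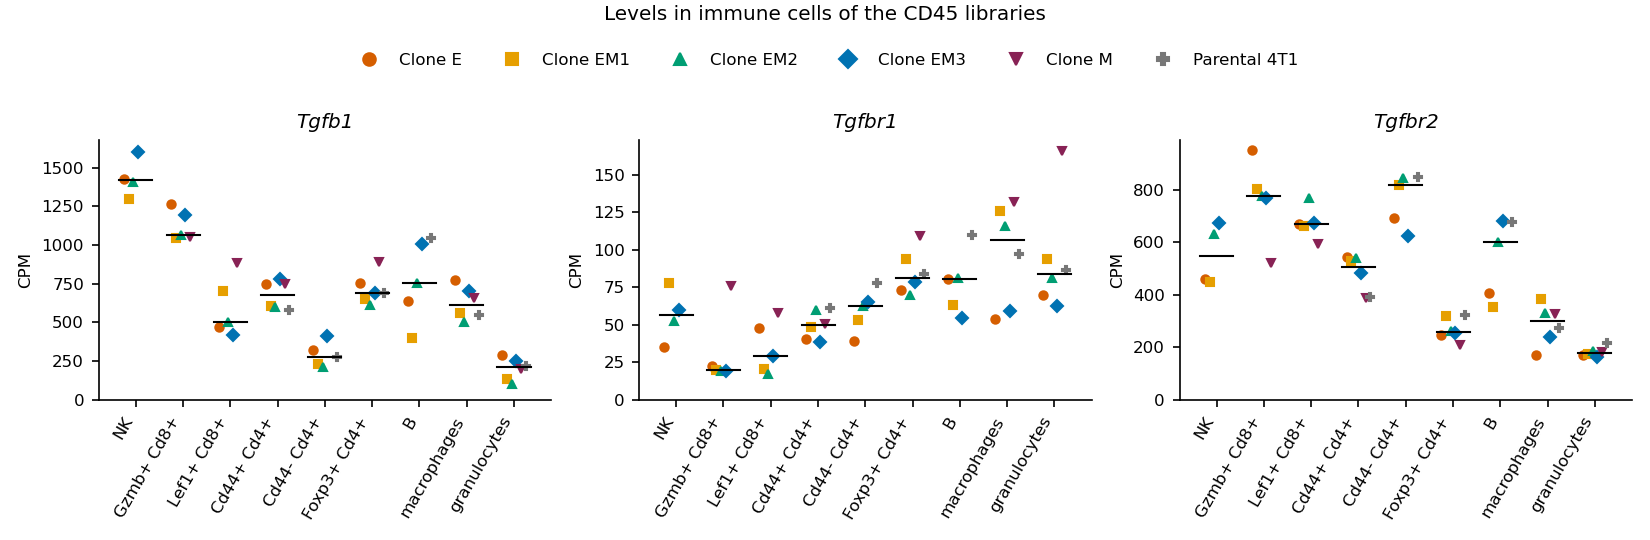
CPM of Tgfb1, Tgfbr1 and Tgfbr2 (y axes, each starting at 0) in T cell subtypes, NK cells, B cells, macrophages and granulocytes of the CD45 libraries (x axis), 1 symbol per tumour with at least 50 cells and a bar at the median. Tgfb1 has its highest medians in NK and Gzmb+ Cd8+ T cells. Tgfbr2 is lower in Foxp3+ Cd4+ T cells (207 to 321 CPM) than in the Cd44- Cd4+ cells (622 to 847 CPM).

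Tgfb2, the isoform known for its roles in mesenchymal tissue during development, was highest in fibroblasts in 6 of 6 tumours. Fibroblasts held 470, 293, 241, 212, 215 and 205 CPM, Clone E being the highest. Tumour cells held 22.6, 28.2, 7.0, 15.9, 11.0 and 7.49 CPM, so that the lowest fibroblast value lay far above the highest tumour-cell value. The class that joins fibroblasts and endothelial cells, called stromal here, was above tumour cells by a log2 difference of 4.21 ± 0.274 (adjusted p = 2.11e-16), higher in 6 of 6 tumours. Fibroblasts alone, a split chosen after the data were seen, gave 4.68 ± 0.265 (adjusted p = 4.15e-19), and endothelial cells, with means of 18.2 against 12 CPM in 4 tumours, gave 0.73 ± 0.394, which was not called. In immune cells the level was low. No main class of the CD45 libraries reached 1 CPM in any tumour (highest 0.933), and NK and B cells held 0 UMIs in every tumour, which allows, by a floor of 3 counts per library, 17.5 to 51.5 CPM in NK cells and 2.25 to 52.8 CPM in B cells, depending on the tumour. Total granulocytes held 3.68 to 11.7 CPM, from 2 to 22 UMIs, and exceeded tumour cells in EM2 (9.09 CPM, 3.66 to 18.7) and the parental tumour (11.7 CPM, 5.6 to 21.5), where the intervals cover the tumour-cell values. The Total B class reached 12.9 CPM in EM1, from 7 UMIs. Macrophages were lower than tumour cells by -2.69 ± 0.286 (adjusted p = 7.57e-11) and T and NK cells by -1.95 ± 0.347 (adjusted p = 5.16e-06), both in 6 of 6 tumours, the latter with overlapping ranges.

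Tgfb3, the third isoform, was held at similar levels by 3 classes. Its level was 75.0, 90.6, 54.3, 70.7, 97.6 and 49.4 CPM in tumour cells, 88.8, 243, 129, 158, 75.4 and 78.5 CPM in fibroblasts, and 75.8, 76.2, 96.1, 75.1, 58.8 and 68.4 CPM in macrophages. All 3 ranges overlapped, and the stromal (0.70 ± 0.190) and macrophage (0.53 ± 0.181) log2 differences from tumour cells stayed under the 2-fold limit. Fibroblasts alone passed it, at 1.17 ± 0.209 (adjusted p = 6.62e-06), higher in 5 of 6 tumours, Clone M being the exception. Granulocytes at -1.24 ± 0.220 (adjusted p = 4.74e-06) and T and NK cells at -2.29 ± 0.215 (adjusted p = 4.59e-12) were lower than tumour cells, each in 6 of 6 tumours. Among the main classes of the CD45 libraries macrophages had the highest median: against CD45 macrophages, at 62.7 to 102 CPM, granulocytes were lower by -2.17 ± 0.190 (adjusted p = 5.09e-13) and dendritic cells by -1.29 ± 0.171 (adjusted p = 5.35e-08), without overlap in either case.

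Ltbp1, which encodes the protein that stores latent TGF-beta in the matrix, was the one gene of the 8 that was highest in tumour cells of every tumour. Tumour cells held 352, 390, 420, 524, 329 and 389 CPM and fibroblasts 132, 109, 128, 132, 90.1 and 119 CPM. The 2 ranges did not overlap, and fibroblasts were lower by a log2 difference of -1.35 ± 0.202 (adjusted p = 2.52e-07), the stromal class by -1.67 ± 0.205 (adjusted p = 5.43e-09). Fibroblasts also held tumour-cell markers, at 818 to 3098 CPM in sum against 3798 to 14286 CPM in tumour cells. The part of tumour-cell RNA in their Ltbp1 level was not tested. Macrophages, at 7.15 to 18.3 CPM, were lower by -4.77 ± 0.227 (adjusted p = 8.53e-21). T and NK cells of the Total libraries held 12.1, 36.9, 41.6, 35.9, 35.4 and 105 CPM, which was 3.45%, 9.45%, 9.9%, 6.86%, 10.8% and 26.9% of the level in tumour cells of the same library. Krt8, a keratin of epithelial cells, stood in the same T and NK cells at 4.61%, 11.0%, 12.6%, 8.51%, 9.76% and 23.8% of its tumour-cell level, with the parental library highest for both genes. In the CD45 libraries no main class exceeded 3.27 CPM of Ltbp1.

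Inhba, the activin A subunit gene, was highest in fibroblasts in 5 tumours and in macrophages in Clone E. Fibroblasts held 1964, 2628, 2603, 2282, 1537 and 3525 CPM, the parental tumour being the highest. Tumour cells held 834, 522, 432, 696, 359 and 588 CPM, all below every fibroblast value. Macrophages of the Total libraries held 2288, 292, 235, 368, 99.5 and 210 CPM, above the tumour cells in Clone E and below them in the other 5 tumours. The stromal class was above tumour cells by a log2 difference of 2.15 ± 0.373 (adjusted p = 4.8e-06) and fibroblasts alone by 2.65 ± 0.367 (adjusted p = 5.02e-08), each in 6 of 6 tumours. Endothelial cells, with 132 against 553 CPM on average in 4 tumours, were lower by -2.10 ± 0.447 (adjusted p = 1.3e-04). For macrophages the log2 difference was 0.00 ± 0.370 over the 6 tumours and -0.70 (adjusted p = 0.0212) without Clone E, and its sign also turned under 6 other settings. In T and NK cells it was lower by -2.21 ± 0.380 (adjusted p = 2.83e-06). Fibroblast classes also held leukocyte markers: all 7 macrophage markers were detected in each tumour, with summed levels of 1679, 249, 445, 1344, 867 and 250 CPM against 7845 to 14429 CPM in macrophages, and T-cell markers summed to 723 CPM in Clone E against 79.4 to 259 CPM elsewhere. Pericyte markers summed to 370 to 1210 CPM in fibroblasts, against 3.95 to 423 CPM in endothelial cells and 2.5 to 32.7 CPM in tumour cells. The macrophage-marker sum was highest in Clone E, where macrophages held 2288 CPM of Inhba and fibroblasts 1964 CPM. The part of these other cells in the fibroblast values, of Inhba and of the other genes, was not tested.

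**Figure D3:**
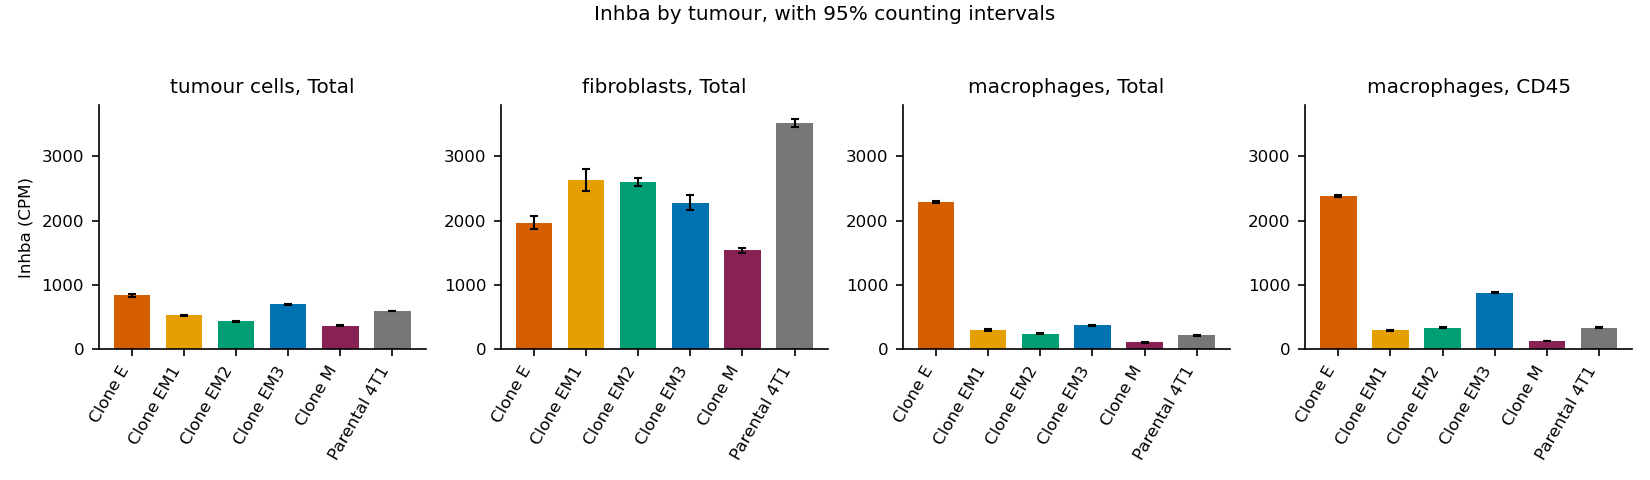
Inhba CPM (y axis, starting at 0, the same scale in all panels) in tumour cells, fibroblasts and macrophages of the Total libraries and in macrophages of the CD45 libraries, 1 bar per tumour (x axis) with its 95% counting interval. Macrophages of Clone E reach 2288 and 2388 CPM in their 2 libraries, the next being 877 CPM in EM3 macrophages of the CD45 library, whereas fibroblasts are at 1537 CPM or more in all 6 tumours.

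The high Inhba level of Clone E macrophages was present in both libraries of that tumour. It was 2288 CPM (counting interval 2268 to 2309) in the 3848 Total macrophages and 2388 CPM (2372 to 2405) in the 5118 CD45 macrophages, 9.72-fold and 7.33-fold the median of the other 5 tumours. CD45 macrophages of the 5 others held 289, 327, 877, 120.0 and 326 CPM, so that EM3, of the same barcode set as E, came next. Without cells whose barcode also stood in another library of the set, the E macrophages held 2346 CPM in the Total and 2402 CPM in the CD45 library, the EM3 macrophages 390.0 and 899 CPM, and the Total ratio was 9.54-fold. Markers of tumour cells and fibroblasts, the other holders of Inhba, summed to 339 and 274 CPM in the E macrophages of the Total library and to 9.2 and 5.26 CPM in those of the CD45 library, beside Inhba at 2288 and 2388 CPM. The part of these cells in the Inhba level was not tested. The 7 macrophage markers summed to 7845 CPM in Total and 8898 CPM in CD45 macrophages of E, below the 11989 to 14429 and 10974 to 14892 CPM of the other tumours.

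More macrophages of Clone E held the transcript. With every cell thinned to 1000 UMIs, 46.4% (44.7 to 48.1) of 3539 Total macrophages of E held an Inhba UMI, against 12.2%, 13.2%, 17.6%, 6.11% and 14.3% in the 5 others in the same order. Unthinned, the share in E was 68.1%, at a median of 5067 UMIs per macrophage, the lowest of the 6 tumours. In the CD45 libraries the thinned shares were 51.5%, 11.3%, 14.6%, 28.0%, 6.49% and 14.6%. T cells of the Clone E CD45 library gave 17.2% thinned and 29.4% unthinned, at a median of 1712 UMIs, and T cells of the other tumours 0.379% to 9.0% thinned. At 1000 UMIs, 34.9% of E tumour cells and 44.7% of E fibroblasts held an Inhba UMI. The cells richest in Inhba that together held 50% of its UMIs in E macrophages numbered 273 (7.09%) in the Total and 488 (9.53%) in the CD45 library, against 1.07% to 2.96% of Total macrophages in the other tumours. In the CD45 libraries the share was 5.2% in EM3 and 1.26% to 2.93% in the remaining 4. These shares are of all macrophages, with or without an Inhba UMI, at unequal depth. Among Total macrophages with a UMI, the cells that held 50% numbered 273 of 2620 in E and 25 of 284 in EM1. They numbered 99 of 914 in EM2, 113 of 1707 in EM3, 31 of 499 in M and 70 of 974 in the parental tumour. Among tumour cells the share was 7.08% in E and 9.55% to 11.8% elsewhere. In fibroblasts it was 4.44% in E, where 6 of 135 cells held 50%, and 5.95% to 13.5% elsewhere, with 5 of 52 cells in EM1 and 5 of 84 in EM3.

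Inhba in CD45 T cells was highest in E and EM3, as in macrophages. It was 177, 13.7, 16.5, 86.7, 6.48 and 23.8 CPM, which was 7.43%, 4.74%, 5.04%, 9.89%, 5.4% and 7.3% of the macrophage level. Macrophage markers stood in the T cells of Clone E at 6.37% to 10.8% of their macrophage level, and those of EM3 at 8.57% to 15.8%, so that Inhba lay inside the range of the 7 markers in both. It also lay inside in EM1 and M, and below it in EM2 (5.11% to 9.09%) and the parental tumour (9.54% to 15.1%). The EM2 and parental values came from 37 UMIs (11.6 to 22.7 CPM) and 22 UMIs (14.9 to 36.0 CPM), and both gaps were within counting error. The part of free RNA in these values was not tested. The order differed elsewhere: CD45 B cells held 155 CPM (94.5 to 239) in EM3 and 128 CPM (102 to 159) in E. As a share of the macrophage level, Inhba in B cells lay inside the range of the markers in E, EM1 and the parental tumour, and it had 0 UMIs in the 42 B cells of M. In EM3 it was 17.6% from 20 UMIs, beside markers at 7.72% to 17.3%, a gap within counting error. In EM2 it was 16.1% from 31 UMIs (35.7 to 74.6 CPM), beside markers at 4.62% to 10.4%, a gap past the counting error of Inhba. The mean per cell there was 27.5 CPM in B cells and 475 CPM in macrophages, against pooled levels of 52.5 and 327 CPM. The marker range is pooled, so it cannot be set beside the means per cell, and the cause of the gap was not tested. The T/NK class of the Total libraries held 156, 86.3, 72.8, 132, 114 and 193 CPM, with the parental tumour highest. In CD45 granulocytes Inhba was 482, 68.1, 95.8, 176, 62.9 and 121 CPM, or 20.2%, 23.5%, 29.3%, 20.0%, 52.4% and 37.2% of the macrophage level, above the median of the macrophage markers (14.6%, 6.93%, 9.17%, 17.2%, 6.8% and 18.1%) and below their highest in each tumour. That highest marker stood at 57.1% to 94.2% in granulocytes, against at most 15.8% for any of the markers in T cells. The part of free RNA in the granulocyte values was not tested. The class labelled Other Myeloid held 1058 CPM in Clone E and 60.7, 78.3, 230.0, 2.47 and 20.5 CPM elsewhere, and dendritic cells 592 CPM in E and 5.22 to 278 CPM elsewhere. The class labelled T/Myeloid Hybrid held, over the 6 tumours, granulocyte markers (8225 to 20142 CPM in sum), macrophage markers (3030 to 6621 CPM) and T cell markers (872 to 1571 CPM). It also held mast cell markers, at 157 to 5164 CPM with a median of 322 CPM. Inhba in this class was 2644 CPM (2505 to 2790) in the 78 cells of E and 1493 CPM (1390 to 1602) in the 86 cells of EM3. It was 301 CPM in EM1, the other tumour with at least 50 such cells. The pooled level was above that of the macrophages of the same library in E and EM3 (2388 and 877 CPM), whereas the mean per cell in E was 1941 CPM in this class and 2852 CPM in macrophages. The part of mixed cells in its level was not tested. The CD45 dendritic class also held macrophage markers, at 1911 to 7265 CPM in sum beside 2588 to 4880 CPM of dendritic markers, and the part of macrophages in its Inhba level was not tested. Against CD45 macrophages, dendritic cells were lower by a log2 difference of -2.27 ± 0.330 (adjusted p = 3.19e-07) in 6 of 6 tumours, a call that was lost (adjusted p = 0.0627) when tumour was left out of the fit. The granulocyte difference of -0.82 ± 0.309 was under the 2-fold limit and was called, at -1.73, without scaling factors.

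**Figure D4:**
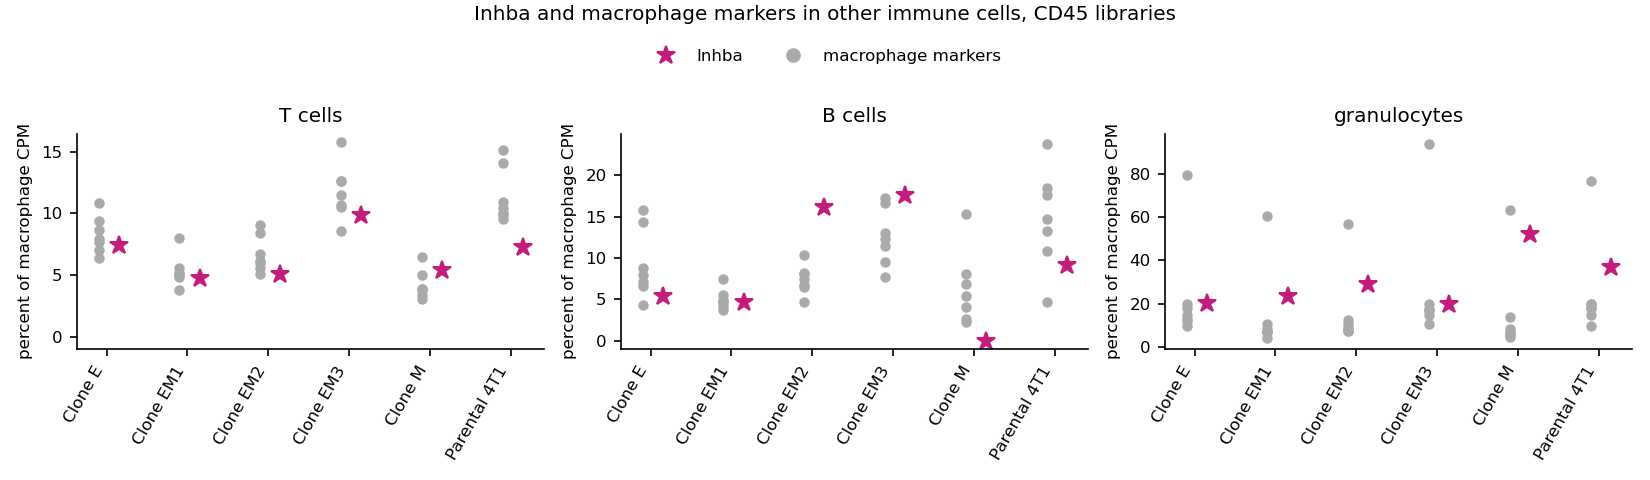
Inhba (star) and the 7 macrophage markers (grey points) in T cells, B cells and granulocytes of the CD45 libraries, each as a percent of its CPM in the macrophages of the same library (y axis, scaled per panel), by tumour (x axis). In T cells Inhba lies among the markers in E, EM1, EM3 and M. It is plotted below them in EM2 and the parental tumour, on 37 and 22 UMIs and within counting error. In B cells it is plotted above them in EM3, on 20 UMIs and within counting error. It is also above them in EM2, on 31 UMIs and past its counting error. In granulocytes it lies above most markers and below the highest, which stands at 57.1% or more.

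Tgfbr2, the receptor that binds the ligand first, was highest in the T/NK and B classes and in fibroblasts. T and NK cells held 763, 665, 579, 591, 414 and 553 CPM, fibroblasts 407, 560.0, 676, 679, 568 and 428 CPM and tumour cells 193, 190.0, 242, 204, 241 and 189 CPM. Neither of the first 2 ranges overlapped tumour cells. T and NK cells were above tumour cells by a log2 difference of 1.46 ± 0.152 (adjusted p = 6.29e-11), the stromal class by 1.55 ± 0.152 (adjusted p = 2.15e-11) and fibroblasts alone by 1.84 ± 0.164 (adjusted p = 6.24e-13), each in 6 of 6 tumours. Macrophages gave 0.99 ± 0.150, just under the 2-fold limit, and passed it without Clone E (1.06) or Clone M (1.02). Among T cell subtypes the regulatory Foxp3+ Cd4+ cells were lowest at 248, 317, 261, 255, 207 and 321 CPM, and Cd44- Cd4+ cells, at 622 to 847 CPM in 5 tumours, did not overlap them, whereas Mki67+ T cells, at 296 to 425 CPM in 4 tumours, did. Gzmb+ Cd8+ cells held 522 to 950 CPM in 5 tumours, with Clone E highest, and overlapped the Cd44- Cd4+, Lef1+ Cd8+ and NK ranges.

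Tgfbr1, the signalling type I receptor, had a flatter distribution. Tumour cells held 146, 180.0, 112, 129, 195 and 141 CPM, granulocytes 77.0, 88.3, 72.7, 89.8, 180.0 and 116 CPM, and T and NK cells 39.4, 63.5, 63.9, 61.2, 100.0 and 94.3 CPM. The T and NK values did not overlap those of tumour cells and were lower by a log2 difference of -1.20 ± 0.148 (adjusted p = 3.7e-09) in 6 of 6 tumours. The stromal difference of -0.46 ± 0.148 and the macrophage difference of 0.01 ± 0.140 were not called, and the sign of the latter turned under 6 settings and in 3 of the fits that left out a tumour. Among T cells the Foxp3+ Cd4+ cells, lowest for Tgfbr2, had the highest median of Tgfbr1 and held 69.9 to 109 CPM. Gzmb+ Cd8+ cells held 19.0 to 75.9 CPM, of which all but Clone M lay at 22.2 CPM or less. The Clone M value came from 8 UMIs in 63 cells, with an interval of 32.8 to 150 CPM. Acvr1b, the type I receptor of activin, was low in every class, at 6.55 to 13.0 CPM in tumour cells and at most 27.2 CPM in any class of the Total libraries. Even so, granulocytes, at 14.0 to 27.2 CPM, were above tumour cells by 1.83 ± 0.193 (adjusted p = 1.05e-10) and the stromal class by 1.26 ± 0.188 (adjusted p = 3.42e-07), the latter higher in 5 of 6 tumours, calls that were lost without scaling factors at 1.00 and 0.89. In the CD45 libraries granulocytes were above macrophages in Acvr1b by 1.43 ± 0.145 (adjusted p = 2.38e-11), lost at 0.54 without scaling factors. The granulocyte differences of Tgfbr1 and Tgfbr2 were not called: 0.27 and 0.65 against tumour cells, and 0.87 and 0.26 against CD45 macrophages, and all 4 turned below 0 without scaling factors.

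Both TGF-beta receptors were lower in macrophages of Clone E than in those of the 5 other tumours, in both libraries. Tgfbr1 in Total macrophages was 64.2, 146, 124, 82.0, 144 and 115 CPM, and in CD45 macrophages 53.5, 126, 116, 59.0, 132 and 97.4 CPM. E and EM3, the 2 tumours of 1 barcode set, were the lowest in both. Tgfbr2 was 186, 395, 339, 287, 339 and 294 CPM in Total macrophages and 171, 384, 330.0, 239, 327 and 274 CPM in CD45 macrophages, again with E lowest and EM3 next. Without cells of shared barcodes, E macrophages held 65.0 and 51.8 CPM of Tgfbr1 and 181 and 170.0 CPM of Tgfbr2 in the Total and CD45 libraries, and EM3 macrophages 84.4 and 58.6 CPM of Tgfbr1. E and EM3 also had the highest Inhba in macrophages. Low Tgfbr1 in these 2 tumours was not particular to macrophages. In the CD45 libraries they were also lowest in T cells, at 35.9 and 37.9 CPM against 45.5 to 75.7 CPM elsewhere. The class Other Myeloid gave 68.3 and 89.7 CPM against 146 to 184 CPM. Dendritic cells gave 38.5 and 41.1 CPM against 44.0 to 67.3 CPM, and granulocytes 70.2 and 62.6 against 80.9 to 166 CPM. The NK and B classes did not follow this order, and EM2 was lowest in Total granulocytes and dendritic cells. The clones and the barcode set cannot be told apart in this pattern, and with 1 tumour per clone it was not tested.

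The authors drew the classes from the same cells, so these tests describe the annotation and are no independent support for it. Against tumour cells, 6 of the 8 genes were called in stromal cells (background over all 12788 genes tested, 30.9%), 3 in macrophages (47.3%), 4 in granulocytes (45.9%) and 7 in T and NK cells (42.9%). With fibroblasts alone 7 were called (31.3% of all genes) and with endothelial cells 4 (29.6%). The macrophage and granulocyte counts were near the background share. In the CD45 libraries 6 of the 8 were tested, Tgfb2 and Ltbp1 being too low, and against macrophages 2 were called in granulocytes (46.0%) and 2 in dendritic cells (18.9%). The median log2 difference of the 8 was 1.31 in stromal cells, 0.275 in macrophages, -0.115 in granulocytes and -1.58 in T and NK cells, beside -0.0498, 0.0797, -0.0541 and 0.0675 for all genes. Without scaling factors the median of all genes moved to -0.403, -0.373, -0.875 and 0.125, and the split of all calls into higher and lower moved from 2806 and 1144 to 2392 and 2407 in stromal cells, from 3408 and 2643 to 2448 and 3902 in macrophages and from 3531 and 2338 to 2396 and 5876 in granulocytes. For granulocytes against macrophages of the CD45 libraries it moved from 2561 and 2426 to 1190 and 5076, with a median of -0.907. In Total granulocytes this setting made Tgfb2 (-1.34) and Inhba (-1.53) called as lower.

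The rest of the pathway was read from a list of 47 further genes, of which 45 were measured and 40 passed the filter of the Total libraries. Their counts stand beside the shares of all genes given above, and were not recounted without scaling factors. In stromal cells 15 of the 40 were called higher and 3 lower than in tumour cells (30.9% of all genes were called, 2806 higher and 1144 lower), with a median log2 difference of 0.445. Large stromal differences included those of Lrrc32 (7.86), Dcn (6.92), Acvrl1 (6.03), Bambi (5.03) and Gdf15 (3.95). Among the genes of latency, Lrrc32, which encodes GARP, a surface anchor of latent TGF-beta, was at 468 CPM on average in fibroblasts against 2.51 CPM in tumour cells, a log2 difference of 8.06 ± 0.326 (adjusted p = 5.43e-24). Of the inhibitors, all 4 that were called were higher in fibroblasts: Dcn (decorin, which binds TGF-beta) at 7.47, Fst (follistatin, which traps activin) at 3.77, Bambi (a decoy receptor) at 3.77 and Fstl3 at 1.76. Dcn is also among the fibroblast markers used to check that class. Bambi was called higher in every Total class set against tumour cells, which held 1.72, 0.754 and 1.25 CPM of it in E, EM3 and M. Fst stood at 146 against 14.2 CPM. Smad3 was lower in fibroblasts, at 103 against 464 CPM (-1.79 ± 0.162, adjusted p = 1.08e-12).

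In macrophages 9 of the 40 were called higher and 19 lower than in tumour cells (47.3% of all genes, 3408 higher and 2643 lower), with a median of -0.845. The higher ones included Nrros, whose product holds latent TGF-beta on myeloid cells, at 205 against 3.19 CPM (6.66 ± 0.257, adjusted p = 4.45e-23), and Thbs1, the thrombospondin gene, at 4430 against 492 CPM (3.65 ± 0.360, adjusted p = 1.12e-11). Tgfbi, named for its induction by TGF-beta, was at 1000 against 31.3 CPM (5.60 ± 0.324), whereas the target Smad7 was lower, at 92.1 against 337 CPM (-1.39 ± 0.153, adjusted p = 1.99e-10). The binding protein genes Ltbp2 (-4.40) and Ltbp4 (-4.42) were lower, as Ltbp1 was, and so was the target Ccn1 (-4.57). The type II activin receptor gene Acvr2b was lower at -1.76 ± 0.223 (adjusted p = 5.62e-09), and Acvr2a, at -0.79, was not called. Granulocytes had 10 of 40 higher and 16 lower (45.9% of all genes; median -0.582), with Nrros (5.37), Acvrl1 (5.33) and Tgfbi (4.04) the largest, and T and NK cells 5 higher and 17 lower (42.9% of all genes; median -0.737). T and NK cells were higher in Lrrc32 (5.05 ± 0.293, adjusted p = 5.62e-18) and in Itgb8, a subunit of a TGF-beta-releasing integrin, at 35.7 against 7.38 CPM (2.19 ± 0.413, adjusted p = 1.31e-05). Endothelial cells, in 4 tumours, had 12 higher and 6 lower (29.6% of all genes), among them Inhbb, the other activin subunit gene, at 562 against 18.9 CPM (4.88 ± 0.336, adjusted p = 3.83e-16). In the CD45 libraries 30 of the 47 were tested: 7 were higher and 11 lower in granulocytes than in macrophages (46.0% of all genes), with Smad3, a carrier of the signal, at 130.0 against 35.2 CPM (2.78 ± 0.141), and 4 were higher and 7 lower in dendritic cells (18.9%), with Lrrc32 at 112 against 23.5 CPM (2.26 ± 0.246).

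A CPM level does not say where most transcripts of a tumour lie, because classes differ in cell number and in UMIs per cell. Of the 48 pairs of a gene and a tumour, tumour cells held the most UMIs in 33. When every cell was given the same weight, this number was 22. Ltbp1 UMIs lay in tumour cells at 80.5%, 97.5%, 95%, 94%, 95% and 95.6%. For Inhba, tumour cells held 7.69%, 81.7%, 62.3%, 54.4%, 72.1% and 72.3%, and macrophages 84.7%, 11.1%, 13.6%, 37.8%, 8.48% and 5.99%. The Clone E tumour, where macrophages were 35.5% of cells and tumour cells 7.18%, was thus the one tumour whose Inhba UMIs lay mainly in macrophages. Fibroblasts, at 0.788% to 2.45% of cells, held 2.42%, 5.18%, 21.8%, 4.36%, 15.7% and 19.8% of Inhba UMIs.

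Among the other genes, fibroblasts held 58.9%, 11.1%, 62.3%, 22.0%, 47.6% and 52.5% of Tgfb2 UMIs, the most of any class in E, EM2 and the parental tumour. Tgfb1 UMIs lay in macrophages at 61.0%, 39.4%, 47.1%, 75.6%, 52.3% and 40.6%, and macrophages led in 4 of 6 tumours. The largest share of Tgfbr2 UMIs lay in tumour cells in 4 tumours (52.1% to 63.5%), in macrophages in EM3 (55.5%) and in T and NK cells in Clone E (46.4%). Shares of this kind follow the cells that dissociation recovered and are not abundances in the living tumour.

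**Figure D5:**
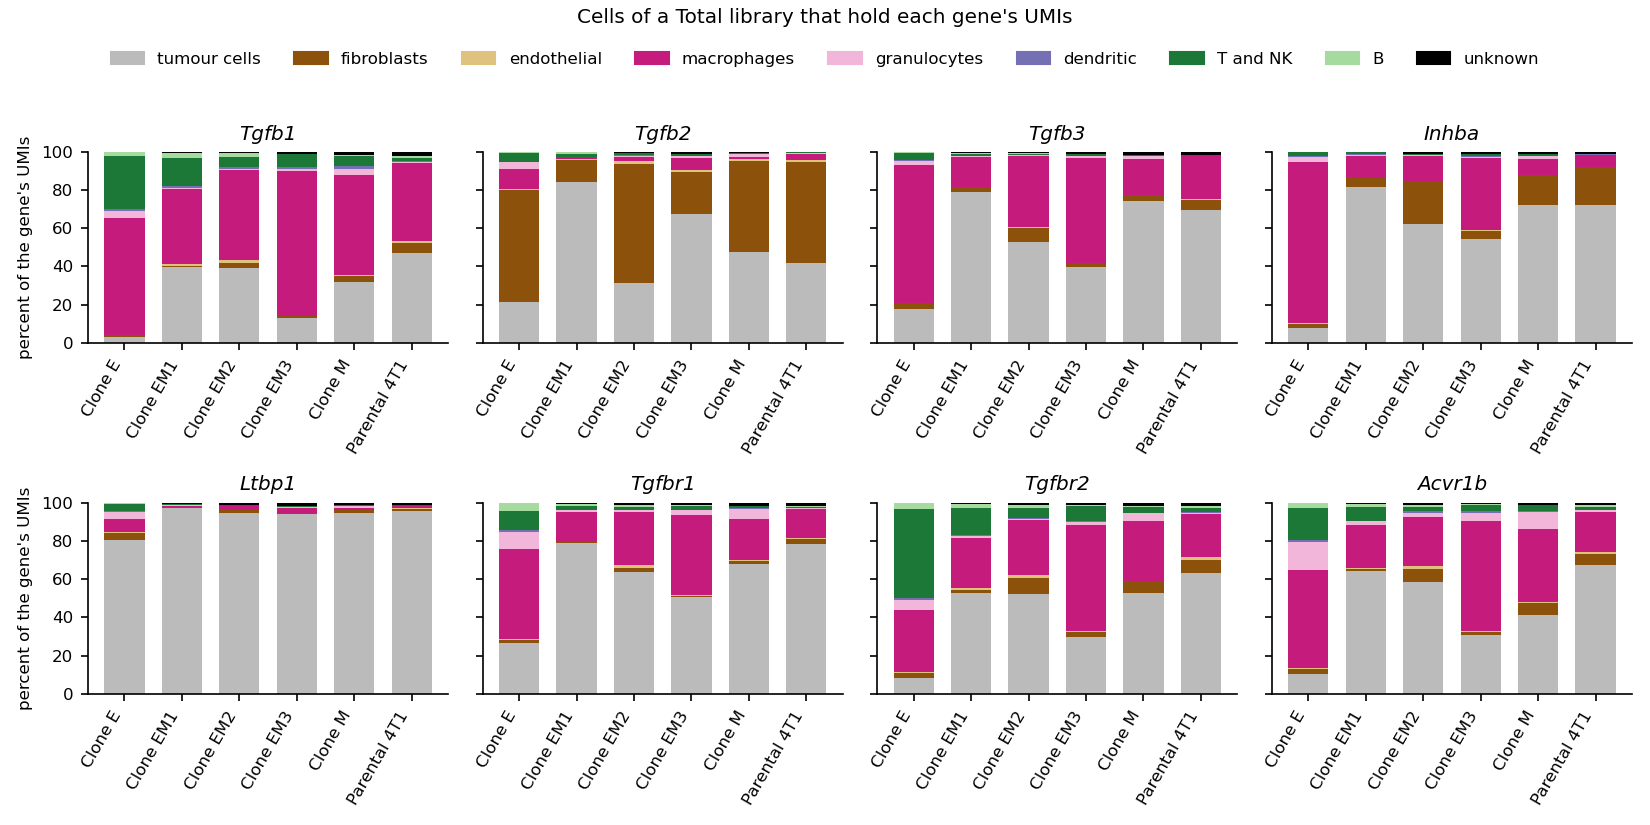
Percent of the UMIs of each gene in a Total library (y axis, 0 to 100) held by each cell class (colours), 1 bar per tumour (x axis). Tumour cells hold 80.5% to 97.5% of Ltbp1 UMIs, fibroblasts 11.1% to 62.3% of Tgfb2, macrophages over 50% of Tgfb1 in E, EM3 and M, and the Inhba bar of Clone E is mostly macrophage (84.7%) where the other tumours are mostly tumour cell.

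Between the tumour cells of the 6 tumours, of the 6 genes at 50 CPM or more, only Inhba ranged over 2-fold on the log2(CPM + 10) scale, from 359 CPM in Clone M to 834 CPM in Clone E, where 25.1% of 5830 genes did so. Macrophage markers summed to 59.0 to 314 CPM in tumour cells, and macrophages of E held 2288 CPM of Inhba. Tumour cells with no UMI of Ptprc, Col1a1 or Pecam1 numbered 355 of 777 in E and 2234 of 4707 in M. The part of other cells in these tumour-cell levels was not tested. Clone M against Clone E gave a log2 difference of -1.19 for Inhba, the 1 of 6 genes past 2-fold, beside 14.6% of all genes, and -0.82 after TMM scaling, which is under 2-fold. Clone EM3 against Clone E, within 1 barcode set, gave 0 of 6 past 2-fold, beside 10.5% of all genes. Between M and E, 5 of 26 other pathway genes passed 2-fold: Ltbp4 (554 against 147 CPM), Ccn2 (236 against 74.6) and Mmp14 (714 against 279) were higher in M, and Tgfbi (10.2 against 62.0) and Itgb1 (688 against 1391) lower. Between EM3 and E, 3 of 26 did: Ltbp4 (368 against 147 CPM) and Tgfbr3 (117 against 52.8) were higher in EM3, and Ccn2 (30.9 against 74.6), opposite to its direction in M, was lower. Tumour cells of Clone M also had the highest level of the feedback targets Smad7 (588 CPM, others 229 to 331) and Skil (960.0 CPM, others 343 to 523), which TGF-beta signalling induces. No replicate tumour stands behind these differences, and between M and E clone and barcode set cannot be told apart.

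Inhba, Tgfbr1 and Tgfbr2 ranged past 2-fold among the 5 genes at 50 CPM or more in the Total macrophages (10.9% of all genes did) and again in the CD45 macrophages (10.2%). In granulocytes 3 of 5 did in the Total libraries (Inhba, Ltbp1 and Tgfbr1, beside 22.7%) and 3 of 4 in the CD45 libraries (Tgfb1, Inhba and Tgfbr1, beside 13.0%). In stromal cells 2 of 7 did (Tgfb3 and Inhba, beside 22.5%), and in fibroblasts alone 3 of 7 (Tgfb2, Tgfb3 and Inhba, beside 29.6%). Over tumour cells, macrophages, granulocytes and stromal cells of the Total libraries this made 9 pairs of gene and class, and 5 without Clone E. Ltbp1 in the Total granulocytes stood at 7.23% to 20.1% of its tumour-cell level and Krt8 at 8.18% to 24.8%, with E lowest and the parental tumour highest for both, and CD45 granulocytes held at most 0.298 CPM of Ltbp1. The part of tumour-cell RNA in this range was not tested. Clone M granulocytes had the highest Tgfbr1 in both libraries, at 180.0 and 166 CPM. This was not particular to granulocytes. Clone M was also highest in tumour cells (195 CPM), Total T and NK cells (100.0), CD45 macrophages (132) and Other Myeloid (184). It was not highest in Total macrophages, fibroblasts, the Total B class or CD45 T cells, nor in dendritic cells of either library.

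The 8 genes were set against the epithelial-mesenchymal score of the tumour cells. The score, the mean log2(CPM + 10) of mesenchymal marker genes minus that of epithelial marker genes, was -1.67, 1.56, 2.15, 3.35, 2.72 and 1.23. Over the 6 tumours Pearson's r ran from -0.584 for Inhba (exact permutation p = 0.218, adjusted over 8 relations 0.671, Spearman's rho -0.429, exact permutation p = 0.419) to 0.497 for Ltbp1 (exact permutation p = 0.296, adjusted 0.671, rho 0.429). By the exact permutation test none of the 8 relations passed p = 0.05, adjusted or not. When the most distant scores, those of E and EM3, were left out, r was -1.0 for Inhba, -0.578 for Ltbp1 and 0.911 for Tgfbr2 over 4 tumours, too few for a test.

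For the 7 genes that reached 50 CPM in some class, which leaves out Acvr1b, the genes with the most similar levels were taken over 45 combinations of class and tumour in the Total libraries among 8748 genes, by Pearson's r of log2(CPM + 10). These combinations share libraries, tumours and depth, so r is a description without a test. For Tgfb2 they were Hhipl1, Thbs3 and Ssc5d (r 0.962, 0.962 and 0.961), and for Ltbp1 Nfix, Oaf and Arhgef17 (0.973, 0.971 and 0.957). Inhba was most like Sdc1 (0.883), Hk2 (0.853) and Cgref1 (0.848), and Tgfb3 like Itgb5 (0.87), an integrin subunit gene, Ttyh2 (0.864) and Axl (0.864), a receptor tyrosine kinase gene. Tgfb1 was most like Atp2b4 (0.916), Pde3b (0.901) and Rab29 (0.892), and Tgfbr2 like Ephx1 (0.866), Slc50a1 (0.827) and Setbp1 (0.824). The highest values for Tgfbr1 were lower, at 0.754 for Slc27a1, 0.749 for Pon3 and 0.74 for Rev1.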

How the data were processed

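Single-cell RNA sequencing was analysed from 6 tumours as Total and CD45 libraries. The authors deposited raw UMI counts for each gene in each cell, after a filter on cells by the authors, whose limits are not given in the sources used here. The submitters' processing notes name Cell Ranger and mm10, and the labels' protocols name a fixed-RNA kit and 3′ reagents. The authors' deposited metadata gave the cell classes. Here doublets were scored per library (scanpy 1.11.5, Scrublet; 2 simulated pairs per cell, expected share 6%, 30 components) and left out. Counts were summed per class and library with at least 50 cells; CPM has no pseudocount, and log2 differences between tumours use CPM + 10 for genes at 50 CPM or more. Classes were compared over tumours with edgeR 4.0.16 (R 4.3.3; filterByExpr, TMM factors, quasi-likelihood test, tumour and class as terms, Benjamini-Hochberg adjustment), with DESeq2 1.42.0 as an alternative. The test was tried on simulated counts in which all classes shared 1 mean per gene. In 1 class 100 genes were changed 2-fold and 100 were changed 4-fold, up and down in equal numbers. For Total macrophages against tumour cells (12788 genes) it called 100% of 4-fold and 50% of 2-fold changes at the 2-fold limit, and 0 unchanged genes. For CD45 granulocytes against macrophages (10833 genes) it called 99%, 51% and 2 unchanged genes. A limit set at 2-fold by itself lets about 50% of 2-fold changes pass. Real classes differed in far more genes, so the simulation does not show how well the scaling factors worked there. Thinning drew 1000 UMIs per cell, leaving out shallower cells. Promoter windows are from RefSeq (GRCm38.p6), gene positions from the GRCm38 annotation. The genes and lists were chosen with earlier results of these data known. All 8 genes are named; of the other pathway genes the rule named up to 6 called with the largest difference per comparison, and others, such as Fstl3, Smad3, Smad7, Acvr2a, Acvr2b and Itgb8, were chosen after their values were seen. 1 gene that this rule names is not reported here. The labels do not pair samples across groups.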

Additional observations from a re-analysis of the deposited data

Results flagged for a closer look

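Of 74 combinations of gene, class and library with values in 4 to 6 tumours, 8 had 1 tumour far from the rest, its gap to the nearest other being large for the range. About 5% of groups are flagged by chance, and the tumours are different clones and not replicates. Clone E stood apart in 5: Inhba in macrophages of the Total library (2288 CPM, nearest other 368) and of the CD45 library (2388, nearest 877), in CD45 granulocytes (482, nearest 176) and in the CD45 class Other Myeloid (1058, nearest 230.0), and Tgfb2 in fibroblasts (470.0, nearest 293). Clone M stood apart for Tgfbr1 in CD45 granulocytes (166, nearest 94.0) and for Tgfb3 in the Total B class (59.4, nearest 27.8; 8 UMIs in 62 cells, with a 95% interval of 25.7 to 117 that covers the nearest value). The parental tumour stood apart for Ltbp1 in T and NK cells of the Total library (105, nearest 41.6), where Krt8 was also highest relative to tumour cells, at 23.8%.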

How the results depend on the processing

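The calls of the Total class contrasts, 20 in all, ranged from 19 to 21 when a tumour was left out and came to 27 without the fold limit; those of the CD45 contrasts rose from 4 to 11 without it. Clone M against Clone E gave 0 genes past 2-fold with TMM-scaled CPM in place of 1. The 9 gene and class pairs past a 2-fold range fell to 4 with a pseudocount of 50 CPM and ranged from 5 to 9 without a tumour, 5 without Clone E. The share of Clone E macrophages with an Inhba UMI, 46.4% at 1000 UMIs, was 37.9% at 500, 68.1% unthinned and 51.5% in the CD45 library.

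The differences whose sign turned were not called. Inhba in macrophages against tumour cells was -0.48 with 2 classes alone, -0.05 with DESeq2, -0.06 with RLE factors, -0.08 with all cells, -0.48 without factors and -0.12 without the filter, and from -0.70 to 0.23 when a tumour was left out. Tgfbr1 was -0.10, -0.05, -0.05, -0.04, -0.44 and -0.07 under the same settings, and from -0.12 to 0.13 without a tumour. Without factors, Tgfbr1 in granulocytes was -0.55 (Total) and -0.03 (CD45), Tgfbr2 -0.17 and -0.65; without the filter Tgfbr1 was -0.02, and without a tumour the CD45 Tgfbr2 difference ran from -0.01 (without Clone E) to 0.34. Tgfbr1's r with the epithelial-mesenchymal score was 0.102 by means per cell. The cause was not tested. Of the other values of single genes, 755 kept their direction and side of the threshold, 28 gained a call and 9 lost one. A further 6 were counted as moved in value.

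Limits: 1 tumour per group allows no test between clones, the annotation and the tests share cells, free RNA was not removed, and classes of few cells, such as endothelial, NK and B cells in some tumours, are counted with wide intervals. Between clones, no paired analysis was possible because each clone is 1 tumour. The class contrasts compare classes within a tumour; without tumour as a block they gave 20 calls in the Total and 4 in the CD45 libraries, where in dendritic cells Inhba (-2.04) lost its call and Tgfbr1 (-1.01) gained one.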
